A study of Mus musculus with 6 samples.

Results

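Bone morphogenetic proteins (BMPs), growth and differentiation factors (GDFs) and the secreted proteins that trap them were examined in the cochleae of mice with and without Fabp7, a fatty acid binding protein of glia and other cells. The set held 10 genes, out of 21893 named genes on the array. They were the ligands Bmp2, Bmp4, Bmp5, Bmp6, Bmp7, Gdf5, Gdf6 and Gdf10 and the antagonists Noggin (Nog) and Gremlin 1 (Grem1). Members were the probes carrying these symbols in the platform annotation, 12 probes in all. Gdf6 was selected on its lower signal in knockout, so its difference is given as a description without a test. The other members came from their family, and the list was chosen with earlier results of these data known.

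RNA was hybridised to 1-colour Agilent arrays, with 3 wild-type samples (Fabp7 (+/+)) and 3 knockout samples (Fabp7 (-/-)), all from female mice aged 7 months that, per the labels, received no treatment that is named. Each sample pooled 4 cochleae of 2 mice, so that each group stood for 12 cochleae of 6 mice. The bony otic capsule was kept and vestibular tissue was removed. Ligands made by bone, fibrocytes or sensory epithelium therefore share 1 signal, and fewer cells of a type cannot be told apart from less RNA per cell. How Fabp7 was deleted and which strain was used are not stated in the sources read here, and p-values reflect the spread between these pools.

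Ligands of this family are secreted as dimers and bind pairs of type I and type II serine/threonine kinase receptors, which phosphorylate SMAD1, SMAD5 and SMAD9. These join SMAD4 and switch on genes such as the Id family and the inhibitory Smad6 and Smad7. Noggin and Gremlin 1 bind the ligands outside the cell and keep them from the receptors. In the ear, BMP signals take part in patterning the sensory epithelium and forming the capsule of the inner ear, and in shaping joints of the middle ear.

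Of 23 marker genes of hair cells, fibrocytes, stria vascularis and tectorial membrane, 22 passed the filter on dim probes and 21 exceeded it on all 6 arrays, with Kcne1 the one left out. The filter asked that a probe exceed its array's 40th percentile on 3 or more of the 6 arrays. The 75th percentile of the raw signal lay between 581.06 and 677, and the arrays correlated pairwise at 0.988 to 0.994 across features. Levels below are log2 signals minus the 75th percentile of their array, so that 0 is a probe at that percentile, and differences are knockout minus wild type on the same scale. Levels of different genes come from different probes and are not set against each other. The targeted gene Fabp7 read 1.98, 1.22 and 1.48 on the wild-type arrays against −5.80, −7.37 and −7.41 on the knockout arrays, in the direction of all 6 labels. Its knockout signals lay under the 40th percentile on all 3 arrays, so the size of its difference rests on dim signals.

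Each of the 10 genes had a probe past the filter, and 10 of the 12 probes exceeded the 40th percentile on all 6 arrays. The probe nearest to the limit on the inside was the dimmer of the Gdf5 pair, above it on 4 arrays. The probe outside it was a second Bmp4 probe, above it on 0 arrays, with levels of −7.46 to −7.21 in wild type and −7.46 to −7.25 in knockout. It was not used further.

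**Figure D1:**
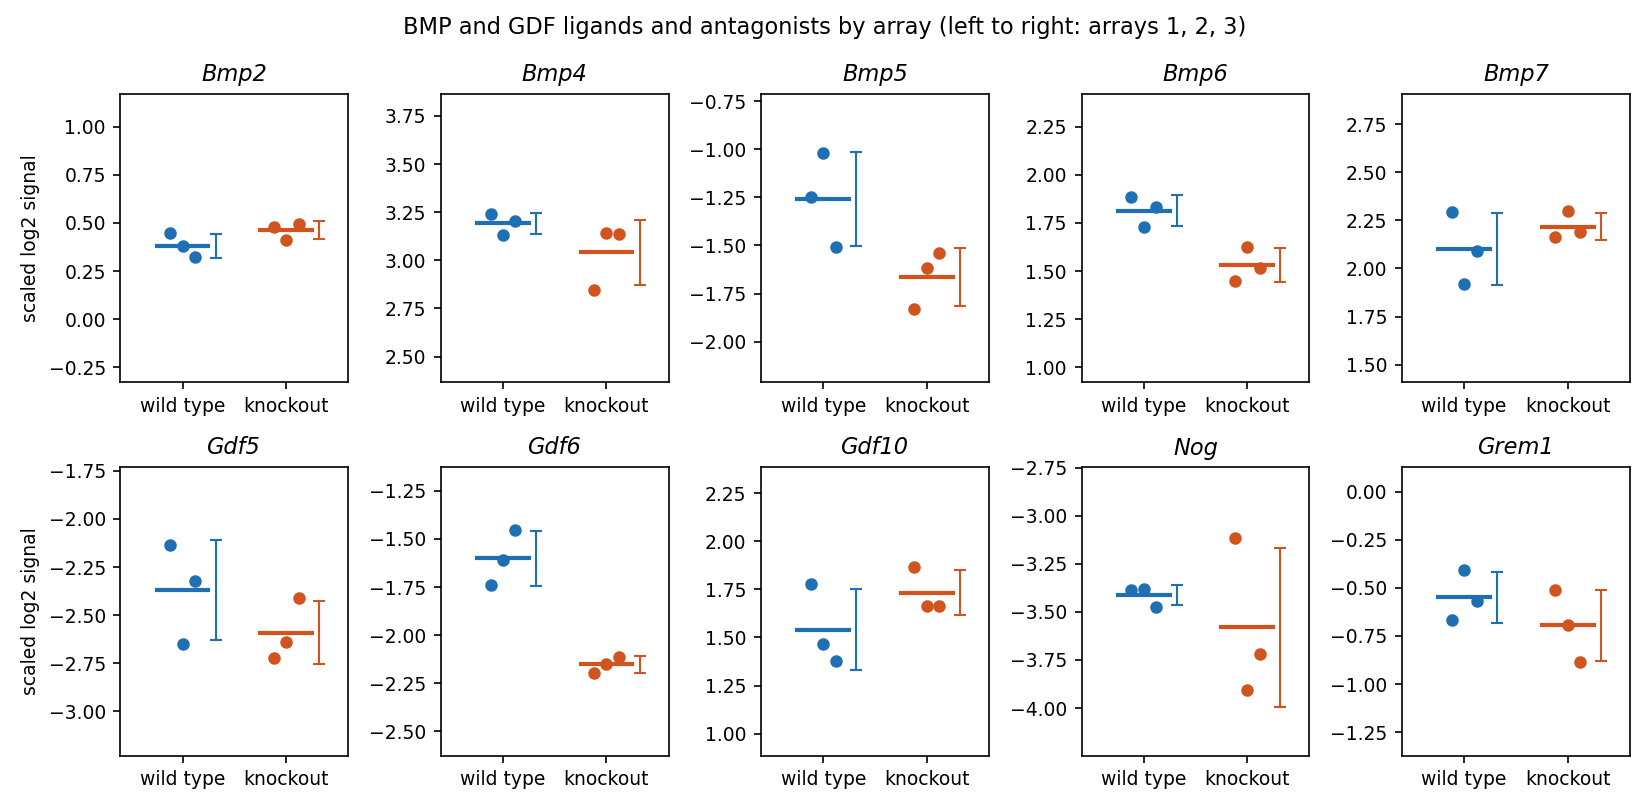
Scaled log2 signal of each ligand and antagonist on every array, with 3 wild-type (blue) and 3 knockout (orange) arrays, the mean as a line and the SD as a bar beside it (n = 3). All panels span the same height. Wild-type and knockout points are separate for Gdf6, Bmp5 and Bmp6 and overlap for the other 7 genes.

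Among the GDF ligands, Gdf6 belongs to the GDF5, GDF6 and GDF7 subfamily, which is known for forming joints and skeletal boundaries. Its raw signals were 203, 218 and 244 on wild-type arrays 1, 2 and 3 and 133, 140 and 134 on knockout arrays 1, 2 and 3. All 3 knockout signals lay below all 3 wild-type signals, and the knockout arrays lay close together. The wild-type level was −1.60 ± 0.14 (SD, n = 3) and the knockout level −2.15 ± 0.04 (SD, n = 3). The difference of −0.55 ± 0.09 (SE) left 0.682 of the wild-type signal. This is the value for which the gene was chosen. The signal stood at percentiles 63.5 to 65.6 of the wild-type arrays and 60.1 to 61.0 of the knockout arrays, well above the filter on every array. With each array left out in turn the difference was −0.62 to −0.48. The gene was chosen on these same arrays, so this range only describes them.

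Gdf5, the relative of Gdf6 best known from growing joints and cartilage, was measured by 2 probes. The brighter probe had raw signals of 154, 106 and 133 on the wild-type arrays and 92.2, 99.8 and 109 on the knockout arrays. Wild-type array 2 lay below knockout array 3, so the groups overlapped. Its difference was −0.22 ± 0.16 (SE), with a 95% interval from −0.61 to 0.16 and an adjusted p of 0.866. The dimmer probe had raw signals of 124, 21.2 and 32.5 with Fabp7 and of 11.6, 13.7 and 24.6 without it. On this probe wild-type array 1 stood far above every other array, and knockout arrays 1 and 2 lay under the 40th percentile. When every probe was fitted as its own feature, this probe was at −1.33 ± 0.69 (SE), with an interval from −3.02 to 0.35 and an adjusted p of 0.855. The wild-type arrays alone were enough for this probe to pass the filter, so its interval and p-value only describe it. Its size is not set against that of the brighter probe.

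Gdf10, also called BMP3b and more distant from the others, showed 2319, 1839 and 1734 units of raw signal on wild-type arrays 1 to 3 and 2226, 1968 and 1841 on knockout arrays 1 to 3. Wild-type array 1 had the highest raw signal, whereas after scaling knockout array 1 was highest, at 1.87 against 1.78. The other two wild-type arrays lay below all knockout arrays. The difference was 0.19 ± 0.13 (SE), with an interval from −0.12 to 0.51 and an adjusted p of 0.866. Without wild-type array 1 it was 0.31, without wild-type array 3 it was 0.11 and without knockout array 1 it was 0.12.

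Bmp5, Bmp6 and Bmp7 form a second subfamily. Bmp5 takes part in cartilage condensation, Bmp6 is known for controlling hepcidin in the liver and for bone formation, and Bmp7 for kidney, eye and bone. Bmp5 had raw signals of 285, 328 and 235 on the wild-type arrays and 171, 203 and 200 on the knockout arrays. The highest knockout signal was close to wild-type array 3, with scaled levels of −1.54 and −1.51, and the groups did not overlap. The wild-type level of Bmp5 was −1.26 ± 0.25 (SD, n = 3) and its knockout level −1.66 ± 0.15 (SD, n = 3). They differed by −0.40 ± 0.15 (SE), which left 0.755 of the wild-type signal. Its interval ran from −0.77 to −0.04, the unadjusted p was 0.0344 and the adjusted p 0.835.

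Bmp6 had raw signals of 2502, 2203 and 2374 with Fabp7 and of 1667, 1914 and 1663 without it. Every knockout array lay below every wild-type array, and the spread within each group was small. Bmp6 stood at 1.81 ± 0.08 (SD, n = 3) with Fabp7 and at 1.53 ± 0.09 (SD, n = 3) without it. The difference was −0.28 ± 0.08 (SE), or 0.821 of the wild-type signal, with an interval from −0.48 to −0.09. The unadjusted p of 0.0128 was the lowest of the 9 members tested, and the adjusted p was 0.745.

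The bases before the annotated starts of Bmp5 and Bmp6 are shown because these are the tested members whose groups did not overlap. They come from RefSeq (GRCm38.p6), 250 bases each, for chr9:75775115-75775364 and chr13:38345466-38345715, both on the plus strand. The table used held such a sequence for 5 of the 10 members. Capitals mark a match to 1 of 5 motifs searched on both strands, namely the GC-rich SMAD element GGCGCC, the palindromic SMAD element GTCTAGAC, the CCAAT box, the GC box GGGCGG and the TATA box TATAAA.
Bmp5: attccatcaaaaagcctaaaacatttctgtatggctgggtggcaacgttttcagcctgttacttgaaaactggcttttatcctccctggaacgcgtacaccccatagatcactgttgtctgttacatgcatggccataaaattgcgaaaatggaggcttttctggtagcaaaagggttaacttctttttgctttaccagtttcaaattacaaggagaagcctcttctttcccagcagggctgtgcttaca
Bmp6: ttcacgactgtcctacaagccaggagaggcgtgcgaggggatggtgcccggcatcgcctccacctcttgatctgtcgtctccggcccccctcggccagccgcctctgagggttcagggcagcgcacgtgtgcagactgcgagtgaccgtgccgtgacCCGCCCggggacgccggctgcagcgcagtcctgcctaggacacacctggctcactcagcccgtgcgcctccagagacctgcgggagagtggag

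The Bmp5 stretch had 42.8% G or C and held 0 matches to the 5 motifs. The Bmp6 stretch had 68.8% G or C and held 1 match, a GC box on the opposite strand. GC boxes also lay before Bmp4 (1), Gdf10 (4) and Grem1 (3), whose groups overlapped. The Grem1 stretch also held 1 GGCGCC and 1 CCAAT. A GC box was found in 32.7% of the 32851 upstream sequences of the table, GGCGCC in 9.59%, GTCTAGAC in 0.167%, CCAAT in 33.8% and TATAAA in 12.4%, and their median G or C content was 52.4%. These are matches of letters in a short window. No measurement here bears on binding.

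Bmp7 showed 3319, 2513 and 2844 units of raw signal on wild-type arrays 1 to 3 and 2734, 3055 and 2651 on knockout arrays 1 to 3. Wild-type array 1 had the highest raw signal and wild-type array 2 the lowest, so the knockout arrays fell inside the wild-type range of raw signal. After scaling, knockout array 2 lay just above wild-type array 1, and the groups still overlapped. Its difference was 0.12 ± 0.11 (SE), with an interval from −0.16 to 0.39 and an adjusted p of 0.880. Without wild-type array 2 it was 0.03, and without wild-type array 1 it was 0.21. Bmp7 therefore had the opposite sign to Bmp5 and Bmp6, and the difference between these genes was not tested.

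**Figure D2:**
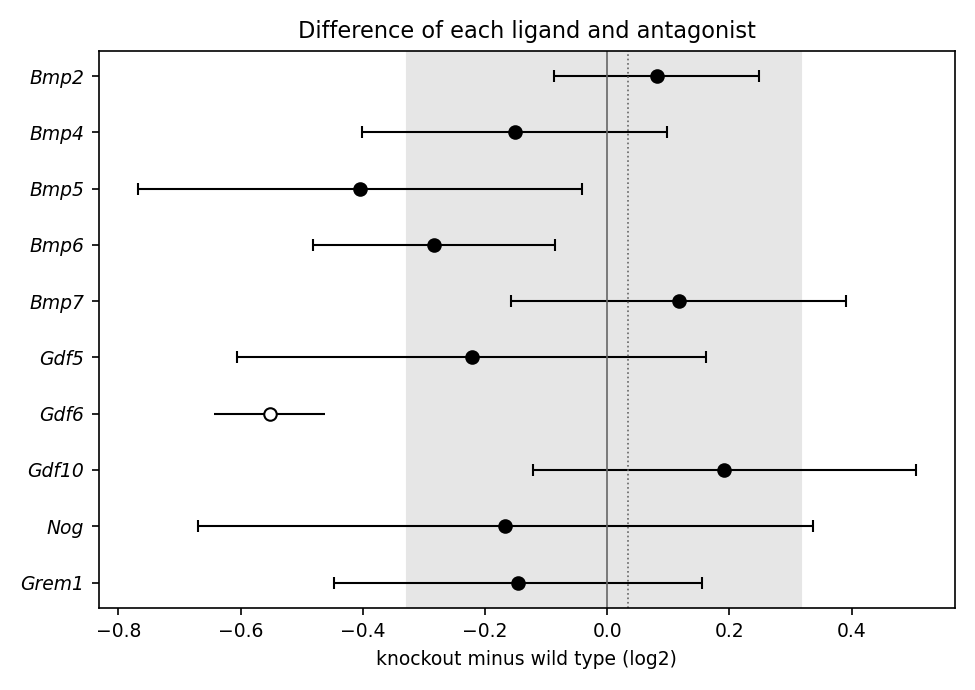
Knockout minus wild type (log2) of each gene, with 95% intervals of the limma fit for the 9 tested genes and, for Gdf6 (open circle), the standard error only. The grey band holds the differences between the 5th and 95th percentiles of all features, −0.33 to 0.32, and the dotted line is their median, 0.03. Intervals of Bmp5 and Bmp6 end below 0 before any adjustment.

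Bmp2 and Bmp4, the closely related pair that drives bone formation and, for Bmp4, marks a border of the sensory epithelium of the developing cochlea, had intervals that include 0. Bmp2 had raw signals of 922, 865 and 834 on the wild-type arrays and 851, 826 and 819 on the knockout arrays. After scaling, the wild-type levels were 0.45, 0.38 and 0.32, the knockout levels were 0.48, 0.41 and 0.50, and the groups overlapped. The difference was 0.08 ± 0.07 (SE), with an interval from −0.09 to 0.25 and an adjusted p of 0.877. This was the narrowest interval among the tested members, and it holds changes of up to 1.19-fold.

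Bmp4 had raw signals of 6396, 5838 and 6152 with Fabp7 and of 4386, 5474 and 5110 without it. Its scaled wild-type levels were 3.24, 3.13 and 3.20 and its knockout levels 2.85, 3.14 and 3.14. Knockout array 1 alone held the low value, and the other two knockout arrays lay level with the lowest wild-type array. The difference was −0.15 ± 0.10 (SE), with an interval from −0.40 to 0.10 and an adjusted p of 0.866. Without knockout array 1 it was −0.05.

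Of the antagonists, Noggin showed 64.8, 63.9 and 60.1 units of raw signal on wild-type arrays 1 to 3 and 70.3, 41.4 and 44.2 on knockout arrays 1 to 3. The wild-type arrays lay close together, whereas knockout array 1 was the brightest of all 6 arrays and the other two knockout arrays were the dimmest. The SD was 0.05 in wild type and 0.41 in knockout (n = 3 each), against median SDs of 0.13 and 0.12 over all features. A smaller knockout SD was found for 91.8% of features. The difference was −0.17 ± 0.21 (SE), with an interval from −0.67 to 0.34 and an adjusted p of 0.897. It was −0.40 without knockout array 1 and −0.0034 without knockout array 2, so its size rested on these arrays.

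Gremlin 1 had raw signals of 426, 502 and 449 on the wild-type arrays and 428, 384 and 315 on the knockout arrays. Knockout array 3 was the dimmest, and knockout array 1 lay within the wild-type range. The difference was −0.15 ± 0.12 (SE), with an interval from −0.45 to 0.15 and an adjusted p of 0.877. Without knockout array 3 it was −0.05. Its interval holds a change of up to 1.36-fold, and that of Noggin up to 1.59-fold.

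**Figure D3:**
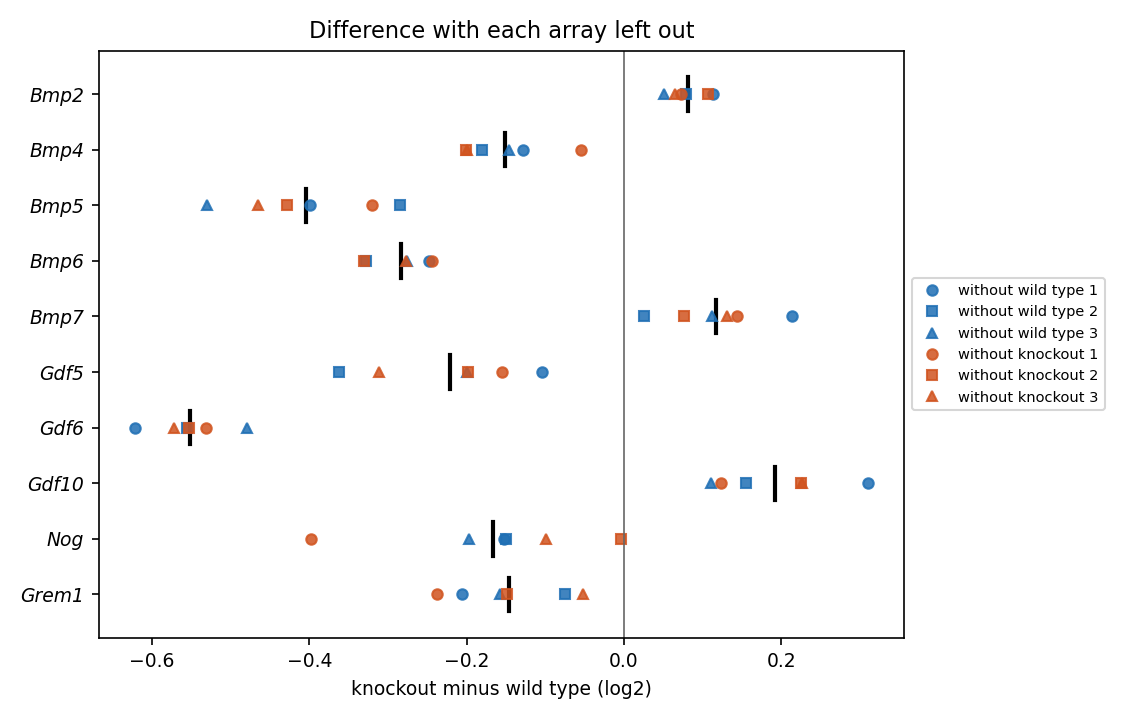
Knockout minus wild type (log2) of each gene over all 6 arrays (black bar) and with 1 array left out (blue for a wild-type and orange for a knockout array, shapes for arrays 1 to 3). No gene changed sign, and Noggin spanned −0.40 to −0.0034.

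Limma called 0 of the 9 tested members at an adjusted p under 0.05, and 0% of the 27189 features. At an unadjusted p under 0.05 there were 2 of 9 members, Bmp5 and Bmp6, both lower in knockout, against 5.7% of all features. The groups did not overlap for these same 2 of 9 genes, against 12.4% of all features in either direction and 4.27% with knockout lower. Of the 9, 6 were below 0 and 3 above, with a median of −0.15, while 39.3% of all features were below 0 with a median of 0.03. These counts describe a short list that was chosen with earlier results known. Bmp6 was at an unadjusted p under 0.05 with each array left out in turn. Bmp5 was not without wild-type array 1 or 2 or knockout array 1 or 2, where its differences were −0.40, −0.29, −0.32 and −0.43. Gdf10, Gdf5 and Noggin came to that level without wild-type array 1, wild-type array 2 and knockout array 1, respectively, and without knockout array 2 only 1 member, Bmp6, was at it. With array weights the members at that level were Bmp6 and Gdf10, where 12.6% of all features were at it, and with the replicate number as a block there were 0, against 4.41% of features.

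Marker genes of neighbouring tissue were read on the same arrays. Over the 5 joint and tendon markers, the mean centred log2 level was 0.11 to 0.27 in wild type and −0.27 to −0.11 in knockout, without overlap, as for Gdf6, Bmp5 and Bmp6. Kera, a proteoglycan of tendon and cornea, was at −1.48 ± 0.22 (SE), the largest difference of the 5. Its signal lay under the 40th percentile on knockout arrays 1 and 2 and level with it on knockout array 3. The size of its difference therefore rests on dim signals, and the mean over the list takes in this size. Scx, a tendon transcription factor, was at −0.13 ± 0.10 and Prg4, the joint lubricant, at 0.10 ± 0.29. Tnmd was at −0.40 ± 0.16 and Mkx at 0.01 ± 0.07. Kera alone was without overlap, and in Scx, Prg4, Tnmd and Mkx the groups overlapped. The mean without Kera was not computed, so the separation of the list is not shown apart from this gene. The summed scaled signal of the 5 markers overlapped, at 8.11 to 9.54 in wild type and 7.55 to 8.48 in knockout. Of 5 adipocyte markers 4 passed the filter, all but Lep, and their mean centred level was 0.40 to 0.69 in wild type and −0.94 to −0.26 in knockout. Pck1, Plin1 and Cidec were at −2.45 ± 0.46, −0.81 ± 0.26 and −0.73 ± 0.23 (SE), and Adipoq, the brightest, was at 0.02 ± 0.13. Pck1 had a raw signal of 14.7 on knockout array 1, under that array's 40th percentile of 21.0. The summed scaled signal of the 4 markers, in which Adipoq weighed most, was 3.66 to 4.23 in wild type and 3.52 to 4.01 in knockout. Of 10 cartilage markers 8 passed, all but Matn3 and Col10a1. Their mean centred level overlapped, at −0.06 to 0.16 and −0.12 to −0.01. Their summed scaled signal, in which Col2a1 weighed most, was 50.6 to 56.0 in wild type and 45.9 to 48.3 in knockout. Cartilage markers at an unadjusted p under 0.05 lay on both sides of 0. Matn1, Chad and Col2a1, matrix genes of cartilage, were at −0.69 ± 0.14, −0.31 ± 0.09 and −0.27 ± 0.09 (SE), and aggrecan (Acan) was at 0.43 ± 0.08, each without overlap, with adjusted p-values of 0.534 to 0.809 (limma, Benjamini-Hochberg). All 9 markers of osteoblasts and osteocytes passed, with mean centred levels of −0.13 to 0.29 and −0.06 to −0.04. Skeletal muscle markers, 4 of 5 past the filter, reached 3.70 on knockout array 2 and lay between −1.66 and 0.71 on the others. Of the cochlear lists, the 7 hair cell markers were all above 0, while 39.3% of all features were below 0. At an unadjusted p under 0.05 (limma) and higher were 2 of them, Slc26a5 and Ocm, against 3.04% of all features. The raw signal of Slc26a5 on wild-type array 1 was 16.8, under that array's 40th percentile of 23.7. Over the list wild-type array 2 stood lowest, at a mean centred level of −0.52. The summed scaled signal of these 7 markers, in which Ocm weighed most, was 21.1 to 28.3 in wild type and 28.9 to 35.3 in knockout. The 5 markers of supporting cells and the tectorial membrane summed to 169 to 200.5 in wild type and 133 to 162 in knockout. Ceacam16, by far the brightest of them, made up most of this sum and was at −0.33 ± 0.11 (SE). Otoa and Otog were at −0.22 ± 0.20 and −0.04 ± 0.31, and Tecta and Tectb at 0.22 ± 0.49 and 0.20 ± 0.44. The mean centred levels of the hair cell list and of this list overlapped between groups. Those of the fibrocyte, stria vascularis, neutrophil, red cell precursor and vestibular or brain lists overlapped as well. All 5 neutrophil markers were above 0. The part of these tissues and cells in the differences of Gdf6, Bmp5 and Bmp6 was not tested.

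**Figure D4:**
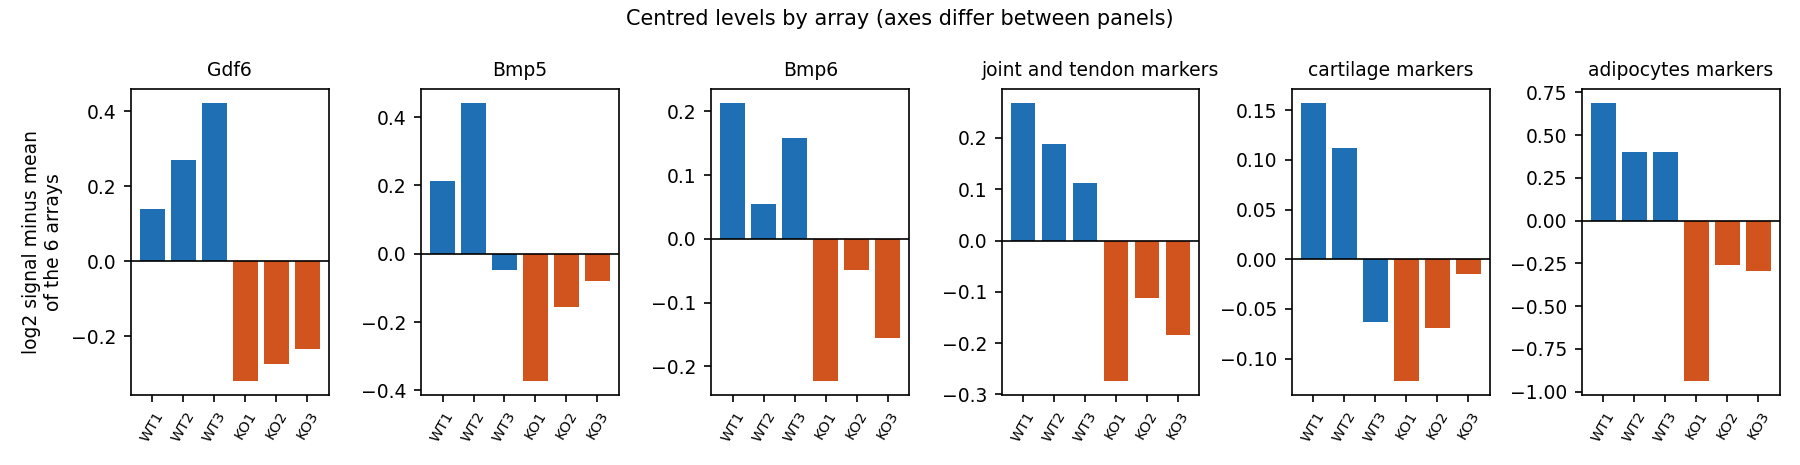
Log2 level minus the mean of the 6 arrays for Gdf6, Bmp5 and Bmp6 and for the mean of 5 joint and tendon, 8 cartilage and 4 adipocyte markers, by array (blue, wild type; orange, knockout; axes differ between panels). Groups are separate in every panel but that of cartilage, in which wild-type array 3 lies among the knockout arrays. The joint and tendon mean takes in Kera, whose knockout signals were dim. Other marker lists are not drawn.

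The rest of the pathway was read from 6 lists, with 65 distinct genes, of which 54 passed the filter and 2 (Gdf15 and Runx2) were not analysed here. Limma called 0 of the 54 at an adjusted p under 0.05, as it did 0% of all features. At an unadjusted p under 0.05 there were 2 higher and 2 lower, beside 3.04% and 2.66% of all features. The groups did not overlap in 8 of the 54 with knockout lower and in 2 with knockout higher. Beside this, 4.27% of all features did not overlap with knockout lower and 12.4% in either direction. The median difference of the 54 was −0.01.

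Other BMP and GDF ligands had 8 of 13 members past the filter, with 0 at an unadjusted p under 0.05 and a median of 0.01. Gdf7, the remaining member of the GDF5 subfamily, had raw signals of 69.9, 47.2 and 51.1 with Fabp7 and of 26.9, 25.4 and 55.1 without it. Knockout array 3 lay within the wild-type range, and the difference was −0.57 ± 0.35 (SE) with an adjusted p of 0.866. Gdf1, a left-right patterning ligand whose messenger RNA also encodes the ceramide synthase Cers1, was at 0.22 ± 0.11 by its brighter probe and at −0.48 by its dimmer one. Gdf11, which patterns the axial skeleton, was at 0.28 ± 0.24, and at 0.019 without knockout array 1 and 0.48 without knockout array 3. Gdf3 was at 0.38 ± 0.57, with wild-type array 1 at a raw signal of 172 against 515 to 780 on the other arrays, and at −0.32 without that array.

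Other antagonists had 13 of 15 members past the filter, with 1 higher and 2 lower at an unadjusted p under 0.05 and a median of 0.00097. Follistatin (Fst), which binds activins and some BMPs, showed 2645, 2772 and 2332 units of raw signal on wild-type arrays 1 to 3 and 1836, 1670 and 1688 on knockout arrays 1 to 3. The groups were well apart, and the difference was −0.42 ± 0.09 (SE) with an adjusted p of 0.595. Crim1, a membrane protein that tethers BMPs, had raw signals of 1007, 984 and 1033 on the wild-type arrays and 681, 752 and 733 on the knockout arrays. It was also without overlap, at −0.33 ± 0.07 (SE) with an adjusted p of 0.597. Dand5, a Cerberus-family antagonist of Nodal, was at 0.18 ± 0.06 (adjusted p = 0.809), with all knockout levels above those of wild type. Sost, the osteocyte protein sclerostin, which is better known as a Wnt inhibitor, was at −0.44 ± 0.25 with overlapping groups.

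**Figure D5:**
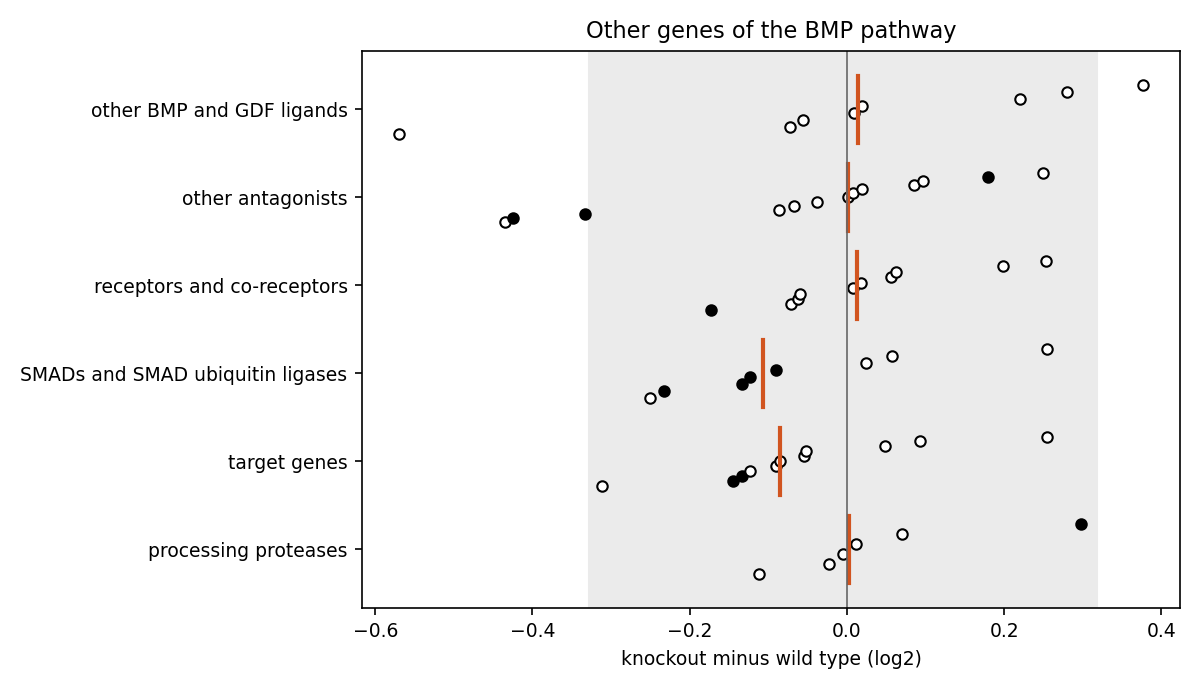
Knockout minus wild type (log2) of the pathway genes past the filter, by list, with filled points where the 3 knockout and 3 wild-type arrays do not overlap and an orange bar at the list median. The grey band holds the 5th to 95th percentiles of all features, −0.33 to 0.32. List medians lie between −0.11 and 0.01.

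Receptors and co-receptors had 10 of 12 members past the filter, with 0 at an unadjusted p under 0.05 and a median of 0.01. The type I receptor Bmpr1b was at 0.25 ± 0.11 (SE), the type II receptor Bmpr2 at 0.20 ± 0.10 and the activin receptors Acvr2a and Acvr1 at −0.17 ± 0.08 and −0.07 ± 0.07. Of these 4, the groups did not overlap in Acvr2a alone, with raw signals of 170, 148 and 166 on the wild-type arrays and 124, 135 and 128 on the knockout arrays. The adjusted p was 0.866 for the first 3 and 0.886 for Acvr1. Over all features the share without overlap was 12.4% in either direction and 4.27% with knockout lower. A second Acvr2a probe, above the 40th percentile on 1 array, did not pass the filter. It was at 0.38, with knockout higher and without overlap.

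SMADs and the ubiquitin ligases that mark them had all 8 members past the filter, with 0 at an unadjusted p under 0.05 and a median of −0.11. Smad1, a direct substrate of the BMP receptors, was at −0.23 ± 0.10 (SE), with raw signals of 315, 285 and 261 on the wild-type arrays and 202, 234 and 225 on the knockout arrays. The inhibitory Smad6 was at −0.13 ± 0.07 and the ligase Smurf2 at −0.12 ± 0.07. In these 3 genes, and in Smad5 at −0.09 ± 0.06, all knockout arrays lay below all wild-type arrays, 4 of the 8 members. Of all features, 4.27% did not overlap with knockout lower and 12.4% in either direction. Dimmer passing probes of Smad5 (0.11) and Smurf2 (−0.07 and −0.07) had overlapping groups. A dimmer passing Smad1 probe was at −0.22 without overlap. Smad7, the other inhibitory member, was at 0.25 ± 0.15 with overlapping groups. The adjusted p of each of the 4 was 0.866.

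Target genes had 11 of 12 members past the filter, with 0 at an unadjusted p under 0.05, 8 below 0 and a median of −0.09. Atoh8, a BMP-responsive transcription factor, was at −0.31 ± 0.13 (SE), with overlapping groups and an adjusted p of 0.866. Id3, of the Id family of direct targets, was at −0.15 ± 0.08, without overlap and with an adjusted p of 0.866. Smad6 and Smad7, given above, belong to this list as well. The groups did not overlap in 2 of its 11 genes, each lower in knockout. Of all features, 12.4% did not overlap in either direction and 4.27% with knockout lower.

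Processing proteases had 6 of 7 members past the filter, with 1 higher at an unadjusted p under 0.05 and a median of 0.0033. That gene was Pcsk6, a proprotein convertase that cleaves BMP precursors, with raw signals of 3657, 3408 and 3711 on the wild-type arrays and 4189, 4182 and 3587 on the knockout arrays. After scaling the knockout arrays lay above the wild-type arrays, at a difference of 0.30 ± 0.08 (SE) and an adjusted p of 0.681. Furin, the convertase used by most ligands, was at 0.07 ± 0.09, Tll1, a tolloid protease that cuts Chordin, at −0.11 ± 0.20 and Pcsk5 at −0.02 ± 0.10. All 3 had overlapping groups.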

How the data were processed

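RNA was taken with TRIzol from pooled cochleae and labelled with Cy3, per the labels' protocols, and Agilent Feature Extraction 10.7 is the tool that the submitters' processing notes list. The files deposited by the authors hold, for each array, a raw linear intensity per probe, all above 0, without detection or saturation marks, and no source read here states the background treatment. In the deposited matrix of log2 values each column is the log2 raw signal of its array less a constant. Its wild-type columns have medians of −3.58, −3.67 and −3.67 and its knockout columns −3.55, −3.69 and −3.68.

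From the raw signals, log2 values minus the 75th percentile of each array were computed for 55676 probes, of which 30625 had 1 gene symbol in the platform annotation. A total of 33484 probes passed the filter, and the brightest passing probe stood for a gene, which left 27189 features (16143 named). The genotypes were compared by limma 3.58.1 (R 4.3.3) with lmFit and eBayes and no covariates, with Benjamini-Hochberg adjustment over all features and a threshold of 0.05. The fit was tested on simulated data with known changes. All members were named, with every probe, and up to 4 genes of each pathway list with the lowest unadjusted p. Smad5 lay outside this rule and was named in addition, among the genes of its list without overlap. Members and lists were chosen with earlier results of these data known. A further listed gene, not counted among those above, is not reported here. Hjv was entered under its current symbol. Protein and probe sequences were not used here. The number of arrays limits the precision. The median half-width of a 95% interval was 0.28 on the log2 scale.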

Additional observations from a re-analysis of the deposited data

How the results depend on the processing

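Over 17 alternatives, which left out each array in turn or used another scaling, value table, filter, probe choice or spread model, 0 tested members were called and no member changed sign. Neither normexp nor a slide or scan block was run, because the files hold no such columns. Gdf6 ranged from −0.62 to −0.48, Bmp5 from −0.53 to −0.27, Bmp6 from −0.33 to −0.23, and Gdf5 from −0.78 (mean of its probes) to −0.10. The value of −0.78 takes in the dimmer Gdf5 probe, which passed the filter mainly through wild type. Adjusted p-values ranged from 0.449 to 0.999 for Bmp5 and from 0.332 to 0.999 for Bmp6. Members at an unadjusted p under 0.05 numbered 1 to 2 with an array left out (4.17% to 7.86% of all features) and 0 with the replicate block (4.41%). Same-numbered samples did not deviate together (correlations of −0.13, −0.04 and −0.14). Correlations of the other wild-type and knockout samples were −0.01 to 0.14. With 3 arrays in a group these values cannot decide whether the numbers pair the samples. The block also spends degrees of freedom. Members without overlap numbered 2 to 5 with an array left out, 5 without wild-type array 1 (27.1% of all features) and 4 without wild-type array 2 (18.8%) or knockout array 1 (21.3%), where fewer arrays make separation easier (12.4% with all arrays), and with quantile or median scaling Bmp4 joined Bmp5 and Bmp6. Over all features limma called 1 with quantile normalization, with dim signals raised to the 40th percentile and with the trend and robust fit, 3 with array weights and 0 to 2 with an array left out. With array weights 3427 features were at an unadjusted p under 0.05, against 1550. Fabp7 passed with quantile normalization (−8.43, adjusted p = 0.0366), raised dim signals (−6.57, 0.00108), the trend and robust fit (−8.42, 0.0146), array weights (−8.64, 0.00813) and without knockout array 1 (−8.95, 0.00733). It did not pass without knockout array 2 or 3 (adjusted p = 0.486 and 0.443), with no filter (0.204) or over all arrays (0.0610). With a knockout array left out it ranged from −8.95 to −8.15. With a wild-type array left out, or all 6 arrays required above the 40th percentile, its probe missed the filter. The Fabp7 probe passed the filter through the wild-type arrays alone, and its sizes are taken against knockout signals under that percentile. Its p-values therefore only describe the settings. Raising dim signals also set its knockout values to the percentile itself, which takes away their own spread. Signs turned for Gdf1 with the mean of its probes (−0.13), for Gdf3 with array weights (−0.0451) and, with an array left out, over −0.32 to 0.79, for Tll1 over −0.29 to 0.0049, and for Pcsk5 with the mean of its probes (0.088), array weights (0.0498) and over −0.0862 to 0.0612. The cause of these turns was not tested.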
